A study of Mus musculus with 10 samples.

Results

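The genes described here code for proteins that recognise introns and remove them from new transcripts: the SR proteins, the hnRNP proteins, the proteins of the small nuclear ribonucleoproteins (snRNPs) and the subunits of splicing factor 3 (SF3). They were chosen by symbol, as every gene whose name begins with Srsf and a digit, Hnrnp, Snrp, Sf3a or Sf3b, which gave 52 of the 24391 genes counted. The families hold 11 SR genes, 20 hnRNP genes, 12 snRNP genes and 9 SF3 genes, and all 52 had at least 10 counts in 4 or more libraries. RNA was sequenced from 5 cell lines grown from mouse small cell lung cancers, a neuroendocrine lung tumour type, named G4314, G9351, G9488, G9529 and G9577. All 5 lines, in both states, carry the labelled genotype of altered Rb and p53 with TRE-MYCN and LSL-RTTA, so that doxycycline keeps a MYCN transgene on. For each line there is 1 library from cells kept on doxycycline (MYCN on, 5 libraries) and 1 from cells grown off the drug for 4 days (MYCN off, 5 libraries). The comparison asks how the levels of these transcripts differ between the states. The labels list 1 library per line and state and do not say how many cultures it came from, the Cre that opens the LSL allele is not named in them, and no culture had doxycycline without the transgene.

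Splicing starts when the U1 snRNP binds the start of an intron and the U2 snRNP, with its SF3 proteins, binds the branch point near the end. The snRNPs are built around a ring of Sm proteins, which the SMN complex loads onto the small nuclear RNAs in the cytoplasm. SR proteins bind exons and draw the machinery to nearby splice sites, while many hnRNP proteins coat new transcripts and can block such sites, so the balance of these families helps to set which exons are kept.

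The libraries held 9586465 to 11960074 counts with MYCN on and 9928420 to 11123998 with MYCN off. Levels are counts scaled to library size with TMM factors (CPM), and with no spike-in RNA they are relative to each library's total. In bulk samples, fewer cells of a type and less RNA per cell cannot be told apart. Mycn, the targeted oncogene, stood at 538, 496, 884, 791 and 977 CPM with MYCN on in G4314, G9351, G9488, G9529 and G9577, the order used for all 5-value lists, against 177, 27.6, 189, 110 and 85.9 CPM with MYCN off. These are reads assigned to the mouse Mycn gene, so transcripts of the transgene and of the cells' own gene cannot be told apart. The groups did not overlap, and the fitted log2 change, MYCN on minus MYCN off, was 2.86 (SE 0.38, adjusted p = 0.00421 in edgeR's quasi-likelihood test). Myc, its relative, fell by 2.64 on the log2 scale (SE 0.30, adjusted p = 0.00339 by the same test). It was low, at 2.06, 0.592, 0.651, 1.235 and 11 CPM with MYCN on, against 11.9, 9.09, 2.84, 7.045 and 55.9 CPM with MYCN off. Its states overlapped through G9577, which was highest in both. The 10 neuroendocrine markers summed to 224 to 4126 CPM in the MYCN-on state and 173.5 to 6587 CPM in the MYCN-off state, and the lowest sum of each state was that of G9577. That line alone had high mesenchymal markers, with summed levels of 3321 CPM in the MYCN-on state and 15324 CPM in the MYCN-off state. The 5 markers of other lung, immune and vessel cells summed to 0.855 to 1.86 CPM in the MYCN-on state and 1.32 to 3.90 CPM in the MYCN-off state, near 0 in all libraries.

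Of the 51 splicing factor genes tested, 29 were called higher with MYCN on, 0 were called lower and 22 passed in neither direction. A call is an adjusted p under 0.05 in edgeR's quasi-likelihood test with line as a block and Benjamini-Hochberg adjustment over all 12835 genes tested. By that rule 15.3% of all genes tested were called higher and 15.6% lower. The fitted change was above 0 for 48 of the 51 genes, against 5760 of the 12835 genes tested. The median log2 change of the 51 genes was 0.54, against -0.08 over all genes tested. In 16 of the 51 genes every library with MYCN on lay above every library with MYCN off, as in 6.35% of all genes tested, and in none did the states separate the other way, as in 2.88% of all genes. At least 2-fold higher calls were made for 5 of the 51, against 5.93% of all genes. All 5 code for snRNP proteins. The members together held 1.64% to 2.05% of a library's CPM with MYCN on and 1.13% to 1.63% with MYCN off. With G4314, G9351, G9488, G9529 and G9577 left out in turn, 10, 9, 22, 24 and 27 members were called higher, and 8 of the 29 were called in every such fit. Calls changed over all genes too: 852, 813, 1447, 1468 and 2244 of 12829 to 13018 genes tested were called higher, against 1969 with all lines.

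**Figure D1:**
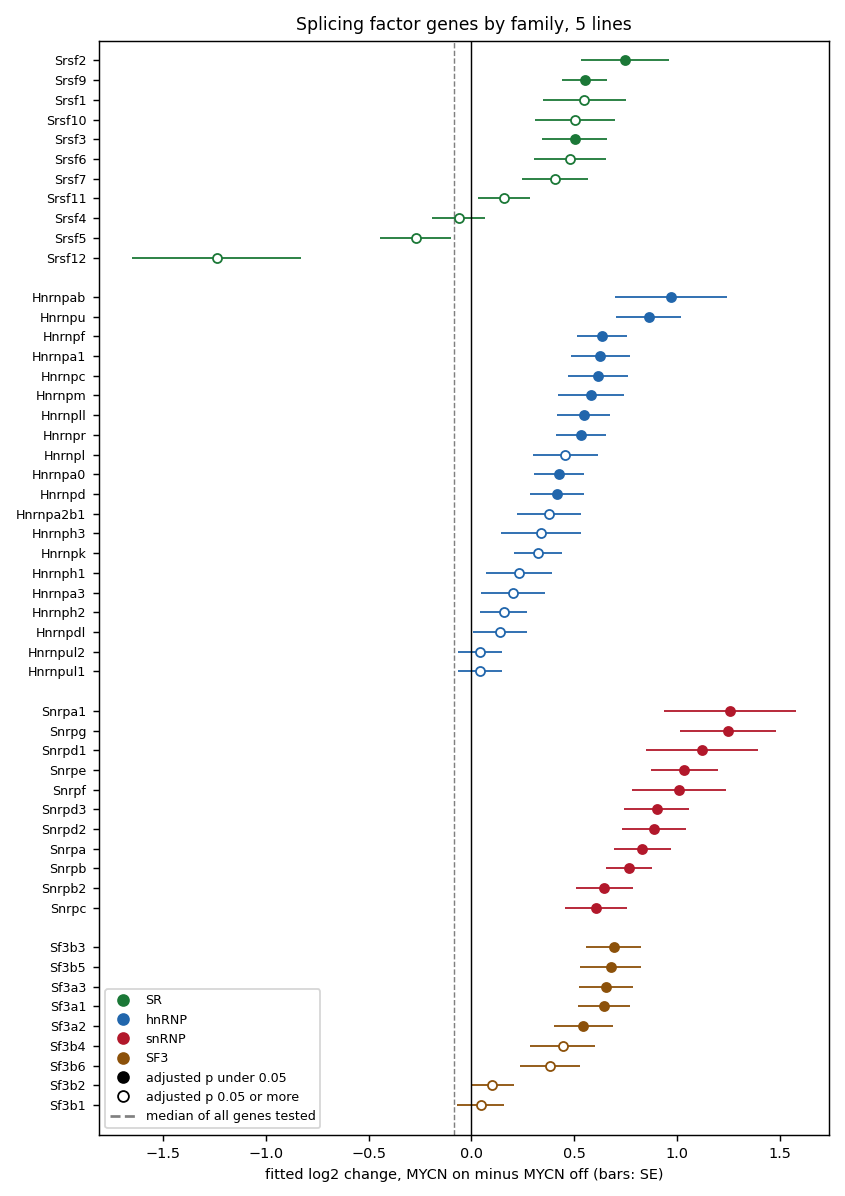
Fitted log2 change, MYCN on minus MYCN off, with its SE for the 51 splicing factor genes tested, grouped by family. Filled points have an adjusted p under 0.05. All 11 snRNP genes are filled and lie between 0.61 and 1.26, and 3 SR genes lie below 0, none of them filled.

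Transcripts of the snRNP proteins rose in every gene tested: 11 of 11 were called higher, with a median log2 change of 0.90 and a range of 0.61 to 1.26. Per library, the summed level of the family was 1088, 973, 1218, 1176 and 1444 CPM with MYCN on, against 507, 542, 826, 782 and 581 CPM with MYCN off. The mean was 1180 ± 175 CPM in the MYCN-on state and 648 ± 146 CPM in the MYCN-off state (SD, n = 5 lines), and the lowest library with MYCN on lay above the highest with MYCN off. The family counts 6 called genes without G4314 and 6 without G9351, the same 6 in each: Snrpe, Snrpd3, Snrpb, Snrpg, Snrpd2 and Snrpa.

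Sm ring proteins bind the small nuclear RNAs of every major spliceosomal snRNP except U6. Snrpe, a ring member (mm9 chromosome 1, 135500448 to 135506857, minus strand), stood at 65.3, 63.8, 61.4, 74.3 and 91.1 CPM with MYCN on, against 25.6, 32.2, 39.1, 43.1 and 34.4 CPM with MYCN off. The states did not overlap, and the log2 change was 1.03 (SE 0.16, adjusted p = 0.00591, edgeR). Snrpd1, the ring protein next to Snrpd2, had 130, 109, 117, 137 and 141 CPM with MYCN on, against 46.0, 61.9, 82.1, 92.7 and 29.3 CPM with MYCN off. Its states did not overlap either, and its lowest value with MYCN off came from the line with its highest value with MYCN on, G9577. The change was 1.12 (SE 0.27, adjusted p = 0.0218, edgeR), and the adjusted p was 0.0866 without G4314 and 0.0601 without G9351. Snrpb, the gene of the ring proteins B and B', reached 268, 256, 308, 342 and 410 CPM with MYCN on, against 148, 144, 216, 213 and 213 CPM with MYCN off. It had the smallest adjusted p of the members, 0.00495, for a log2 change of 0.77 (SE 0.11, edgeR), and no library with MYCN off came up to the lowest with MYCN on.

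Snrpg, the smallest ring protein, was counted at low levels: 13.5, 11.6, 18.03, 12.5 and 28.6 CPM with MYCN on, against 5.34, 4.69, 8.51, 8.01 and 7.79 CPM with MYCN off. The states did not overlap (log2 change 1.25, SE 0.23, adjusted p = 0.00978, edgeR). Snrpf, also of the ring, had 13.8, 13.3, 21.1, 13.8 and 13.6 CPM with MYCN on, against 5.53, 5.999, 14.9, 9.07 and 4.79 CPM with MYCN off. The states overlapped through G9488, which was highest in both. Its change was 1.01 (SE 0.23, adjusted p = 0.0179, edgeR), with an adjusted p of 0.0700 without G4314 and 0.0688 without G9351. Of the 813 exon bases of Snrpf, 687 are shared with other annotated genes, and reads that fit more than 1 gene were not counted, so its level is a part of the transcript. Snrpd3 and Snrpd2, the remaining ring genes tested, changed by 0.90 (SE 0.16) and 0.89 (SE 0.15). Per exon length (TPM), the ring genes ranged with MYCN on from 50.5 ± 11.98 TPM for Snrpf and 113 ± 35.9 TPM for Snrpg to 757 ± 87.1 TPM for Snrpb and 832 ± 203 TPM for Snrpd3 (SD, n = 5 lines). With MYCN off the same genes stood at 29.2 ± 16.4, 50.1 ± 12.6, 477 ± 91.4 and 495 ± 209 TPM. The TPM of Snrpf divides by all 813 exon bases, shared ones included, so it understates the gene and leaves its low rank uncertain.

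The Snrp genes of proteins specific to U1 or U2 were called higher as well. Snrpa1, the U2 protein A' (mm9 chromosome 7, 73205222 to 73219473, plus strand), had the largest fitted rise of all members, 1.26 on the log2 scale (SE 0.32, adjusted p = 0.0258, edgeR). Its levels were 128, 94.3, 112, 121 and 196 CPM with MYCN on, against 44.5, 46.0, 76.0, 82.9 and 30.0 CPM with MYCN off, with no overlap. The change within a line ran from 0.54 in G9529 to 2.70 in G9577, and the adjusted p was 0.0936 without G4314 and 0.0715 without G9351. Snrpb2, the partner of Snrpa1 on U2, stood at 106, 99.1, 100.1, 94.3 and 106 CPM with MYCN on, against 50.2, 61.4, 73.1, 72.5 and 68.4 CPM with MYCN off. Those states did not overlap (log2 change 0.65, SE 0.14, adjusted p = 0.0147, edgeR), and the adjusted p was 0.0540 without G4314 and 0.0599 without G9351. Snrpa and Snrpc, proteins of U1, changed by 0.83 (SE 0.14, adjusted p = 0.00725, edgeR) and 0.61 (SE 0.15, adjusted p = 0.0237, edgeR). Snrpc was the snRNP gene nearest 0. Its adjusted p was 0.0866 without G4314, 0.0898 without G9351 and 0.0529 without G9488. Snrpn, an imprinted Sm gene of neurons, was not tested because only 4 libraries reached 10 counts. It had 5.86 CPM in the MYCN-on state and 9.78 CPM in the MYCN-off state in G9488, and at most 1.28 CPM in the MYCN-on state and 1.59 CPM in the MYCN-off state elsewhere. Most of its exon bases, 1970 of 2380, are shared with Snurf.

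The 250 bases before a RefSeq start of 3 genes (build GRCm38.p6) are printed. They let the members be set against the E-box, the short motif bound by MYC family proteins. Capitals mark CACGTG, which reads the same on both strands. The first is Snrpa (chr7:27196272-27196521, minus strand), which holds the motif more than once, the second Hnrnpf (chr6:117907554-117907803, plus strand), and the third Snrpe (chr1:133610281-133610530, minus strand), a called gene without it in the window.
Snrpa: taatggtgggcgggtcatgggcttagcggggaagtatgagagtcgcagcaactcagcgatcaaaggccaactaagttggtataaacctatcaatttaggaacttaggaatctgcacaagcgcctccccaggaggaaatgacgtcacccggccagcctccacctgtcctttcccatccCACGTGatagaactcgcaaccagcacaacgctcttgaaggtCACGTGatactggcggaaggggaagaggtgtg
Hnrnpf: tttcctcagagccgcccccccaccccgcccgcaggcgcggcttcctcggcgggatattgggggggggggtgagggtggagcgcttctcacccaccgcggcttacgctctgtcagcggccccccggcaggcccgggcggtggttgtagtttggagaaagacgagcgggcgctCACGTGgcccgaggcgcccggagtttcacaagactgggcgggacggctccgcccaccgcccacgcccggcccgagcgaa
Snrpe: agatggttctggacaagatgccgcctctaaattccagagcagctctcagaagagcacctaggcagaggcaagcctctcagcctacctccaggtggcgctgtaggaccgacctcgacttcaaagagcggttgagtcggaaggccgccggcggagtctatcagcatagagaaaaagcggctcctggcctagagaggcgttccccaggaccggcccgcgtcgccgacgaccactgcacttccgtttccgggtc

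Windows of 300 bases, 250 before the start and 50 after it, were found for 46 of the 52 members, and 6 of the 46 (13.0%) held CACGTG. A gene was counted if any of its windows held the motif. The share was 11.8% of 9762 tested genes with a window and 8.09% of 27025 genes in the RefSeq table. Counted by window and not by gene, it was 7.15% of 32851 windows. In Snrpa the motif begins 73 and 32 bases before the start shown, in Hnrnpf 79, in Hnrnpd 32 and in Hnrnpa3 18 bases before it, and in Hnrnpm and Hnrnph2 13 and 15 bases after it. Among members called higher, 4 of 25 with a window held it (16.0%), against 16.3% of all genes called higher with a window. For all genes called lower the share was 10.3%, and for genes not called 11.1%. Snrpa and Hnrnpf have other RefSeq starts too, and the windows printed for them were picked by their motifs. The other Hnrnpf windows lack CACGTG, and the other Snrpa window holds it 69 bases before its start. A match describes the letters of a window and nothing more.

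**Figure D2:**
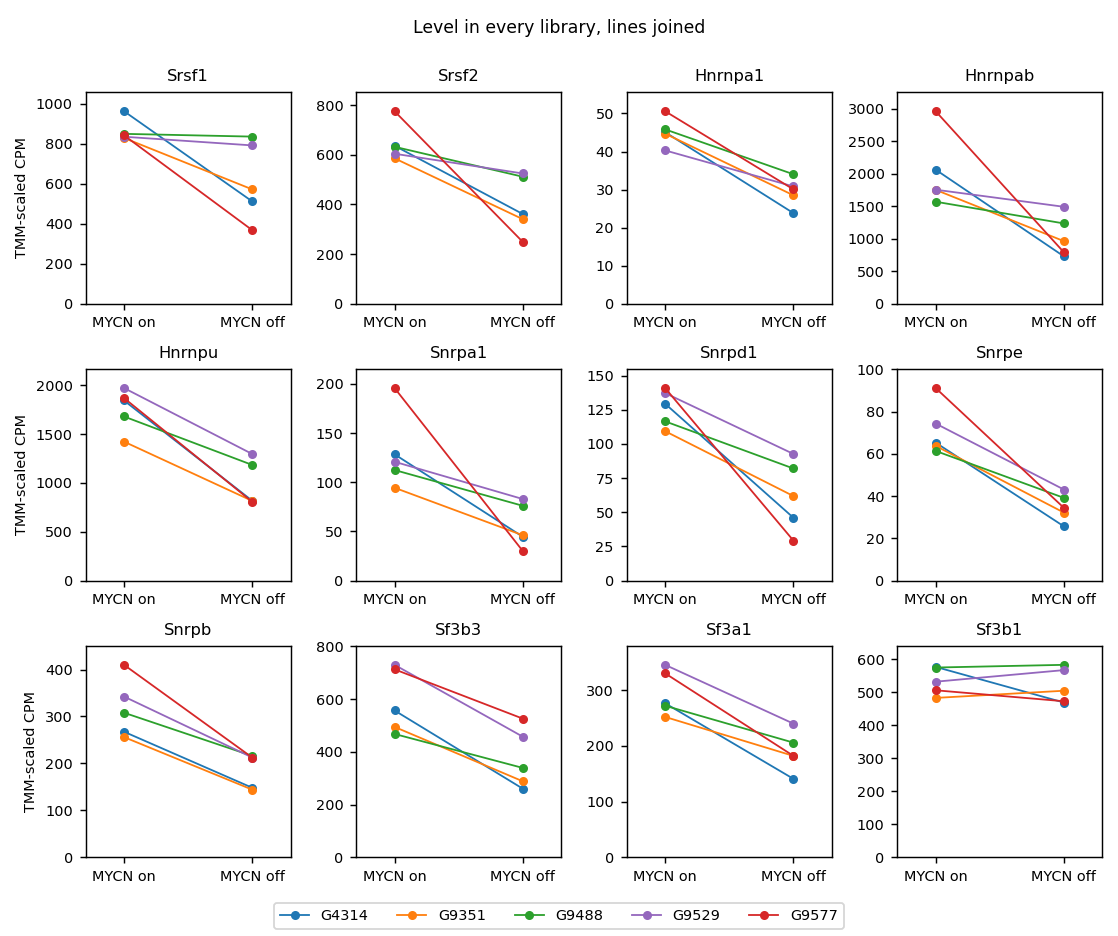
TMM-scaled CPM of 12 splicing factor genes in every library, MYCN on at the left and MYCN off at the right of each panel, with the 2 libraries of a line joined. Snrpa1, Snrpd1, Snrpe and Snrpb separate by state, Srsf1 reaches 836 CPM with MYCN off in G9488, and Sf3b1 runs level.

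Of the SF3 genes, 5 of 9 were called higher and 0 lower, with a median log2 change of 0.54. The family summed to 2507 ± 267 CPM in the MYCN-on state and 1963 ± 317 CPM in the MYCN-off state (SD, n = 5 lines). All 3 subunits of SF3A rose, and of the 6 Sf3b genes, which make up most of SF3B, 2 rose. The SF3 count was 2 without G4314 and 2 without G9351.

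Sf3b3, a large scaffold subunit of SF3B (mm9 chromosome 8, 113334392 to 113370703, minus strand), had 557, 495, 468, 730 and 713 CPM with MYCN on, against 260, 288, 339, 458 and 526 CPM with MYCN off. The states overlapped because G9577 with MYCN off lay above 2 libraries with MYCN on, yet each line was higher with MYCN on. The change was 0.69 (SE 0.13, adjusted p = 0.0110, edgeR), and the gene was called without each line in turn. Sf3b5, a small SF3B subunit, changed by 0.68 (SE 0.15, adjusted p = 0.0158, edgeR), with an adjusted p of 0.0700 without G9351.

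Sf3a1, which ties SF3A to the U2 snRNP, stood at 276, 252, 272, 345 and 330 CPM with MYCN on, against 141, 182, 206, 240 and 182 CPM with MYCN off. It was the only SF3 gene whose states did not overlap, with a log2 change of 0.65 (SE 0.13, adjusted p = 0.0114, edgeR) and an adjusted p of 0.0514 without G4314. Sf3a3 and Sf3a2, its partners in SF3A, changed by 0.65 (SE 0.13, adjusted p = 0.0119, edgeR) and 0.54 (SE 0.14, adjusted p = 0.0280, edgeR). The adjusted p of Sf3a3 was 0.0558 without G4314 and 0.0530 without G9351. For Sf3a2 it was 0.102, 0.0780, 0.0530 and 0.0578 with G4314, G9351, G9488 and G9529 left out in turn.

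Sf3b1, the SF3B subunit that clamps the branch point and the target of several splicing inhibitors, was the SF3 gene nearest 0. It had 577, 483, 575, 532 and 506 CPM with MYCN on, against 469, 505, 583, 567 and 473 CPM with MYCN off. The states overlapped fully, and the log2 change was 0.04 (SE 0.11, adjusted p = 0.784, edgeR), or -0.03 without G4314. For Sf3b2, another large SF3B subunit, the log2 change was 0.10 (SE 0.10, adjusted p = 0.479, edgeR). Sf3b4 and Sf3b6 had changes of 0.44 (SE 0.16) and 0.38 (SE 0.14), both above 0 in 5 of 5 lines, with adjusted p-values of 0.0709 and 0.0824 in edgeR. Whether the changes of these subunits differ from those of Sf3b3 or the SF3A genes was not tested.

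Of the hnRNP genes, 10 of 20 were called higher and 0 lower, with a median log2 change of 0.42, and all 20 fitted changes were above 0. Summed over the family, the level was 12472, 9975, 11616, 11594 and 12656 CPM with MYCN on, against 7383, 7365, 9669, 10136 and 6618 CPM with MYCN off. The 2 ranges overlapped, since G9351 with MYCN on lay below G9529 with MYCN off, and each line was higher with MYCN on. The count was 2 without G4314 and 1 without G9351. Hnrnpu was the hnRNP gene called without each line in turn.

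Hnrnpu, a nuclear scaffold protein that binds chromatin and RNA (mm9 chromosome 1, 180258431 to 180267915, minus strand), had 1846, 1424, 1682, 1974 and 1871 CPM with MYCN on, against 817, 816, 1185, 1297 and 807 CPM with MYCN off. The states did not overlap, and the change was 0.86 (SE 0.16, adjusted p = 0.00942, edgeR). Hnrnpab, which binds AU-rich RNA, showed the largest hnRNP change, 0.97 (SE 0.27, adjusted p = 0.0346, edgeR). Its levels were 2061, 1751, 1568, 1753 and 2960 CPM with MYCN on, against 728, 962, 1234, 1490 and 790 CPM with MYCN off. The states did not overlap, but the change ran from 0.23 in G9529 to 1.91 in G9577. The adjusted p was 0.120 without G4314 and 0.0934 without G9351. Per length Hnrnpab averaged 2119 ± 411 TPM with MYCN on and 1194 ± 425 TPM with MYCN off (SD, n = 5 lines). Its mean was the highest of the members with MYCN on, while Hnrnpa2b1 was higher with MYCN off, at 1558 ± 377 TPM. Reads that fit more than 1 gene were not counted, which lowers members such as Hnrnpa1, so these ranks are uncertain.

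Hnrnpf, which binds runs of G, changed by about as much in each line, from 0.42 to 0.77. It stood at 57.9, 55.1, 62.0, 63.0 and 81.3 CPM with MYCN on, against 36.1, 34.8, 46.2, 37.0 and 52.7 CPM with MYCN off, with no overlap. The fitted change was 0.63 (SE 0.12, adjusted p = 0.0107, edgeR), with an adjusted p of 0.0523 without G9351. Hnrnpc, which binds runs of U and measures transcript length, changed by 0.62 (SE 0.15, adjusted p = 0.0206, edgeR), without overlap, and its adjusted p was 0.0814 without G4314 and 0.0699 without G9351.

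Hnrnpa1, a silencer-binding protein that is among the best known opponents of SR proteins (mm9 chromosome 15, 103070828 to 103077129, plus strand), had 45.1, 44.7, 45.8, 40.3 and 50.6 CPM with MYCN on, against 23.8, 28.5, 34.0, 30.8 and 30.1 CPM with MYCN off. The states did not overlap. The change was 0.63 (SE 0.14, adjusted p = 0.0186, edgeR), with an adjusted p of 0.0747 without G4314 and 0.0719 without G9351. Its exons share 1759 of 2190 bases with the annotated genes Gm10052 and Gm5643, which had 0 to 6 counts, so the level printed is a part of its reads. Hnrnph3, Hnrnpa3 and Srsf4 share 1764 of 2168, 1458 of 5224 and 1551 of 2254 exon bases with other genes, which leaves their values uncertain in the same way.

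The remaining called hnRNP genes were Hnrnpm, Hnrnpll, Hnrnpr, Hnrnpa0 and Hnrnpd, with log2 changes of 0.58, 0.54, 0.53, 0.42 and 0.42. Hnrnpul1 and Hnrnpul2, relatives of Hnrnpu, stood nearest 0. Hnrnpul1 had 353, 333, 428, 353 and 337 CPM with MYCN on, against 301, 303, 413, 386 and 355 CPM with MYCN off. Its states overlapped, and its change was 0.04 (SE 0.11, adjusted p = 0.785, edgeR), or -0.02 without G4314. Hnrnpa2b1, an abundant relative of Hnrnpa1, was at 1658 ± 181 CPM in the MYCN-on state and 1287 ± 237 CPM in the MYCN-off state (SD, n = 5 lines), higher in 5 of 5 lines, but was not called (log2 change 0.38, SE 0.15, adjusted p = 0.0984, edgeR). None of the 5 called genes of this paragraph was called in every fit with a line left out, and all its genes but Hnrnpul1 were chosen after their values were seen.

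The SR family was the most mixed, with 3 of 11 genes called higher, 0 called lower and fitted changes from -1.24 to 0.75 (median 0.48). Its summed level was 3650 ± 223 CPM in the MYCN-on state and 2763 ± 487 CPM in the MYCN-off state (SD, n = 5 lines). The number called higher was 0 without G4314, 0 without G9351 and 1 without G9488.

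Srsf2, a speckle protein that binds exonic enhancers (mm9 chromosome 11, 116711211 to 116714408, minus strand), had 637, 586, 632, 604 and 776 CPM with MYCN on, against 361, 341, 512, 525 and 249 CPM with MYCN off. It was the only SR gene whose states did not overlap, and the change was 0.75 (SE 0.22, adjusted p = 0.0372, edgeR). Within lines the change ran from 0.20 in G9529 to 1.64 in G9577. The adjusted p was 0.116 without G4314, 0.112 without G9351 and 0.0536 without G9488. Srsf9, a close relative of Srsf1, had 145, 109, 106, 118 and 196 CPM with MYCN on, against 99.1, 66.6, 80.7, 89.0 and 121 CPM with MYCN off. The states overlapped through G9577, which was highest in both. Its change was 0.55 (SE 0.11, adjusted p = 0.0119, edgeR), with an adjusted p of 0.0504 without G4314 and 0.0617 without G9351. Srsf3, a small SR protein with a part in mRNA export, changed by 0.50 (SE 0.16, adjusted p = 0.0479, edgeR), and of the fits with a line left out none called it.

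Srsf1, the prototype of the family and a known oncoprotein, was not called. It had 963, 829, 850, 835 and 842 CPM with MYCN on, against 512, 572, 836, 792 and 368 CPM with MYCN off. With MYCN on the lines stood close together, while with MYCN off G9488 and G9529 were near the MYCN-on level and the other lines well below it. The change was 0.55 (SE 0.20, adjusted p = 0.0746, edgeR), above 0 in 5 of 5 lines, with line values of 0.91, 0.54, 0.02, 0.08 and 1.20. Srsf4, which carries a long arginine and serine tail, was the SR gene nearest 0 (log2 change -0.06, SE 0.13, adjusted p = 0.726, edgeR), and the fit without G9577 gave 0.03. Srsf5 and Srsf12, named after their values were seen, had the other changes below 0. For Srsf5, an SR protein known to respond to growth signals, the change was -0.27 (SE 0.17, adjusted p = 0.258, edgeR), and the lines disagreed in sign. Srsf12, an SR protein that can oppose the other SR proteins, was barely counted: 4.71, 8.09, 0.651, 0.570 and 0 CPM with MYCN on, against 10.4, 8.81, 2.93, 2.11 and 0.111 CPM with MYCN off. Its change of -1.24 (SE 0.41) was negative in 5 of 5 lines and missed the threshold in edgeR (adjusted p = 0.0561), but passed it with RLE scaling (0.0483), in DESeq2 (0.0210) and without G9351 (0.0453).

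**Figure D3:**
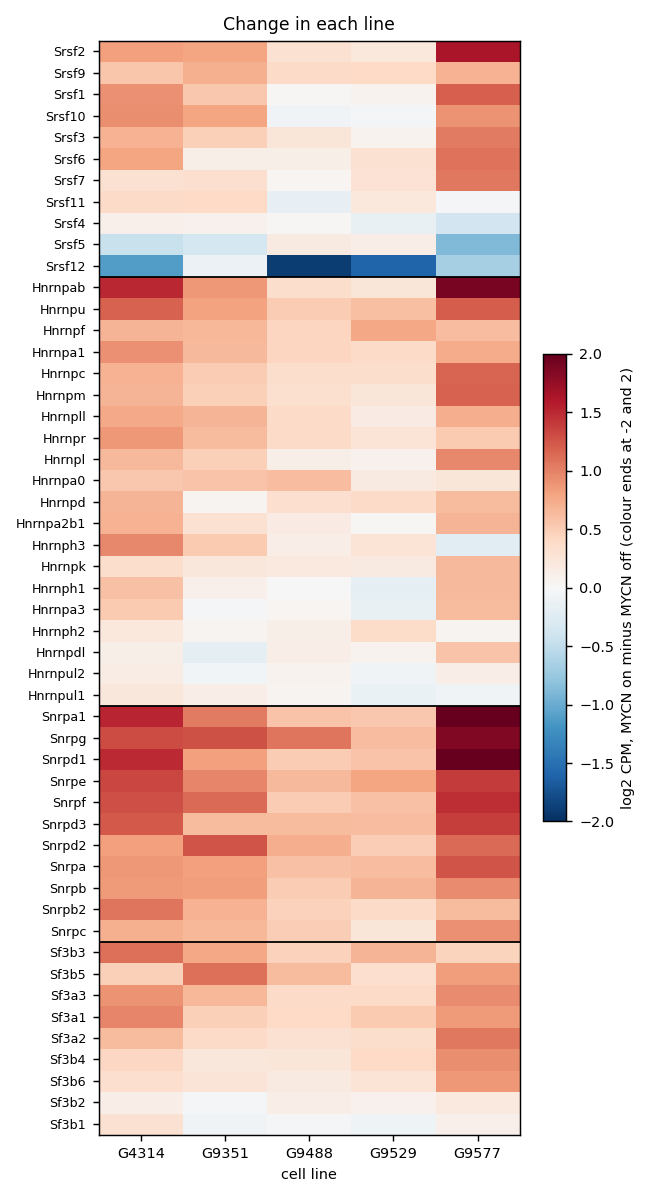
Change in log2 CPM, MYCN on minus MYCN off, of the 51 genes tested (rows, by family) in each of the 5 lines (columns). Red is higher with MYCN on. The columns of G4314 and G9577 are the deepest red, and the snRNP block is red in all 5 lines.

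The lines agreed in direction for most members but not in size. The median change over the 51 genes was 0.69 in G4314, 0.52 in G9351, 0.33 in G9488, 0.27 in G9529 and 0.86 in G9577. For the 11 snRNP genes the medians were 1.23, 0.83, 0.56, 0.59 and 1.39, and all 11 changes were above 0 in every line. The SR medians were 0.55, 0.40, 0.05, 0.14 and 0.90. G9577 gave the largest change for 28 of the 51 genes and G4314 for 14, while G9529 gave the smallest for 25 and G9488 for 17. The change of the Mycn reads, with the transgene not separated, had another order, at 1.61, 4.16, 2.23, 2.85 and 3.50 in the same lines. A list of 15 mitotic genes, added after values were seen, had median changes of 2.66, 1.78, 0.41, -0.07 and 3.13, largest in G9577, G4314 and G9351, as for the members. Its part in the splicing factor changes was not tested.

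The spread between lines was smaller with MYCN on for most members. The SD of log2 CPM over the 5 lines was smaller with MYCN on than with MYCN off in 38 of the 51 genes (74.5%), against 57.6% of all genes tested. Its median over the 51 genes was 0.23 with MYCN on and 0.32 with MYCN off, against 0.515 and 0.576 over all genes tested. By family the count was 6 of 11 SR genes, 16 of 20 hnRNP genes, 9 of 11 snRNP genes and 7 of 9 SF3 genes. The SR share, 54.5%, was below that of all genes tested. This is a description chosen after values were seen, with no test.

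**Figure D4:**
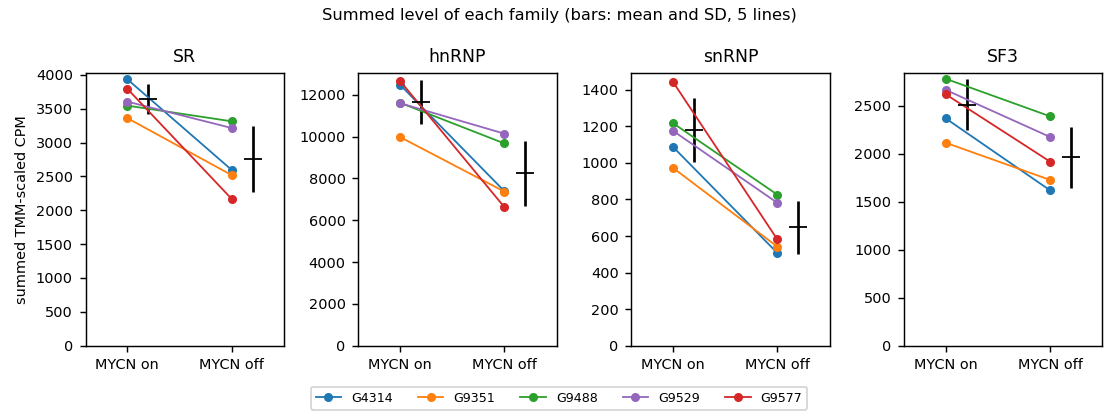
Summed TMM-scaled CPM of the SR, hnRNP, snRNP and SF3 families in each library, MYCN on at the left and MYCN off at the right, with lines joined and the mean and SD beside them. Every line falls to the right in each family, and the snRNP sums of the 2 states do not overlap.

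For Hnrnpul2 and Sf3b2, chosen after values were seen, levels differed more between lines than between states. Neither was called by state, and the difference between lines was not tested. Hnrnpul2 had 501, 437, 1080, 469 and 332 CPM with MYCN on, against 452, 456, 1031, 492 and 304 CPM with MYCN off, and G9488 was highest in both. Sf3b2 had 493, 446, 937, 509 and 502 CPM with MYCN on, against 450, 457, 854, 481 and 439 CPM with MYCN off. On average over both states, G9488 exceeded the mean of the other lines by 1.31 on the log2 scale for Hnrnpul2 and by 0.92 for Sf3b2. Both lie on mm9 chromosome 19, at 8893891 to 8908632 on the plus strand and at 5273921 to 5295455 on the minus strand. Of the 179 genes tested that start within the first 10000000 bases of that chromosome, 164 were above the mean of the other lines in G9488, with a median of 0.96, while the medians of the other lines ran from -0.34 to -0.09. Such shifts were not limited to these genes. Over whole chromosomes the G9488 median was 0.59 for chromosome 19, 0.63 for chromosome 10 and -0.87 for chromosome 14. The chromosome 10 members Snrpf, Snrpd3, Sf3b5, Sf3a2 and Hnrnph3 were also highest in G9488 in both states. What lies behind these shared levels was not tested.

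Other parts of the splicing machinery were read from lists chosen by function. Among 17 tested genes of the SMN complex and Sm protein methylation, which prepare the Sm ring, 11 were called higher and 0 lower, with a median log2 change of 0.93. Prmt5, the methyltransferase that modifies Sm tails, had 151, 165, 91.8, 171 and 322 CPM with MYCN on, against 54.9, 70.0, 47.5, 76.6 and 97.0 CPM with MYCN off. Each line rose, the states overlapped through G9488 and G9577, and the change was 1.31 (SE 0.14, adjusted p = 0.00303, edgeR). Clns1a, the chaperone that hands Sm proteins to the SMN complex, stood at 154, 168, 125, 138 and 164 CPM with MYCN on, against 72.1, 73.1, 69.0, 83.4 and 63.1 CPM with MYCN off. It separated by state, with a change of 1.05 (SE 0.13, adjusted p = 0.00385, edgeR). Of 8 LSm genes, most of which code for the ring of U6, 7 were called higher, with a median of 0.98. Lsm3 changed by 1.12 (SE 0.22, adjusted p = 0.0108, edgeR) and Lsm4 by 1.02 (SE 0.23, adjusted p = 0.0178, edgeR). Without G4314, G9351, G9488, G9529 and G9577 in turn, 7, 8, 9, 8 and 11 genes of the SMN list and 1, 1, 3, 4 and 7 LSm genes were called higher. Lsm4 had an adjusted p of 0.0688 without G4314 and 0.0567 without G9351.

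For the U1, U5 and tri-snRNP proteins, 12 of 22 were called higher and 0 lower (median 0.48). Snrnp70, a U1 protein named after its value was seen, was not called (log2 change 0.14, SE 0.13, adjusted p = 0.452, edgeR). Usp39, a tri-snRNP protein needed for its docking, changed by 0.92 (SE 0.13, adjusted p = 0.00474, edgeR), and Txnl4a, a small U5 protein, by 0.67 (SE 0.11, adjusted p = 0.00669, edgeR). Of 17 branch point and U2-associated factors, 8 were called higher and 1 lower (median 0.40). Rbm17, which works with the U2 snRNP, changed by 0.70 (SE 0.11, adjusted p = 0.00618, edgeR). Rbm5, an RNA-binding protein that favours exon skipping and is named as a tumour suppressor in lung cancer, fell in 5 of 5 lines. It averaged 136 ± 45.4 CPM in the MYCN-on state and 237 ± 57.7 CPM in the MYCN-off state (SD, n = 5 lines), a change of -0.83 (SE 0.14, adjusted p = 0.00681, edgeR). Of 25 Prp19 complex and catalytic step factors, 11 were called higher and 0 lower (median 0.31). Ctnnbl1 and Isy1, proteins of the catalytic spliceosome, changed by 0.72 (SE 0.11) and 0.97 (SE 0.17). Leaving out G4314, G9351, G9488, G9529 and G9577 in turn gave 3, 3, 8, 10 and 12 tri-snRNP genes, 1, 2, 6, 5 and 8 branch point genes and 5, 5, 6, 5 and 13 Prp19 genes called higher.

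**Figure D5:**
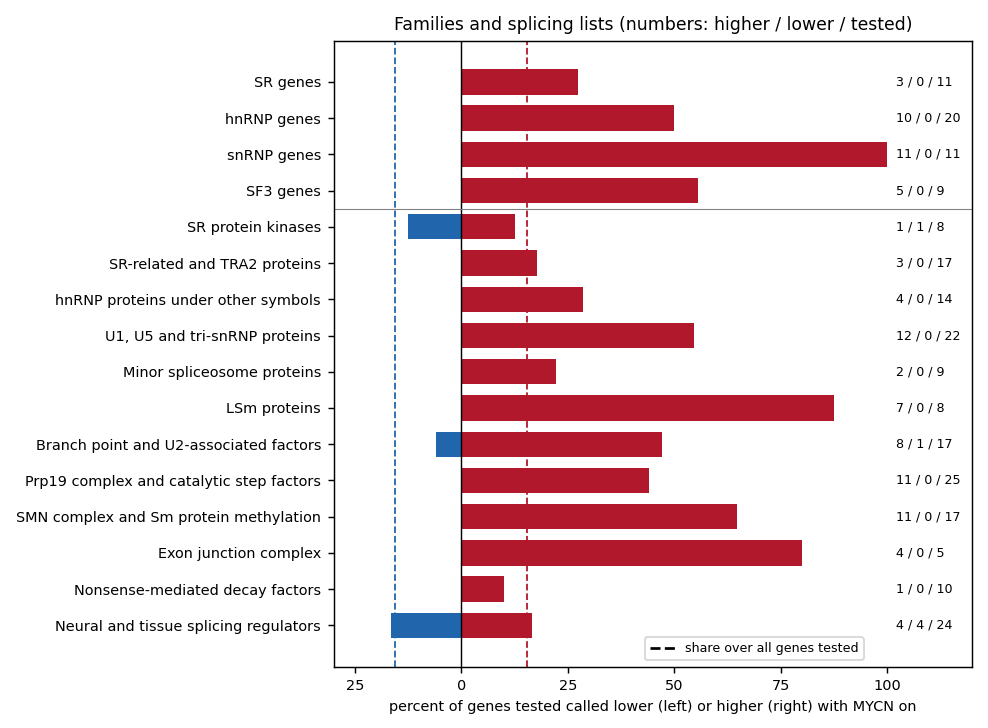
Percent of genes tested called lower (left of 0) or higher (right of 0) with MYCN on, for the 4 families and 12 splicing lists, with counts at the right. Dashed lines mark the shares over all genes tested, 15.6% lower and 15.3% higher. The snRNP, LSm and exon junction complex bars reach farthest to the right, and the SR kinase and neural regulator bars extend both ways.

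The exon junction complex marks spliced joints, and 4 of its 5 genes were called higher (median 0.69), among them Magohb (1.35, SE 0.22, adjusted p = 0.00668, edgeR) and its paralog Magoh (0.77, SE 0.14, adjusted p = 0.00901, edgeR). Nonsense-mediated decay factors, which read that mark, had 1 of 10 called higher, against 15.3% of all genes tested. The called gene was Smg5 (0.63, SE 0.19, adjusted p = 0.0452, edgeR). The count for the exon junction complex was 2 without G9351, and Smg5 lost its call in 4 of the 5 fits with a line left out, those without G4314, without G9351, without G9488 or without G9529. hnRNP proteins under other symbols had 4 of 14 called higher. Syncrip, a cytoplasmic and nuclear hnRNP relative, changed by 0.98 (SE 0.19, adjusted p = 0.0103, edgeR) and Taf15, an RNA-binding protein, by 0.61 (SE 0.10, adjusted p = 0.00689, edgeR). Leaving out G4314 or G9351 left 2 of these calls each.

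SR-related proteins had 3 of 17 genes called higher and 0 lower, near the share of all genes, with Scaf11 at 0.47 (SE 0.11, adjusted p = 0.0196, edgeR) and Rnps1 at 0.57 (SE 0.14, adjusted p = 0.0212, edgeR). Minor spliceosome proteins, which serve a rare intron class, had 2 of 9 called higher, against 15.3% of all genes tested. These were Snrnp25 (0.95, SE 0.19, adjusted p = 0.0114, edgeR) and Zrsr2 (0.39, SE 0.12, adjusted p = 0.0477, edgeR). Without G4314 the counts were 0 and 1, without G9351 they were 0 and 0, without G9488 they were 1 and 1, and without G9529 they were 2 and 1. Of the kinases that phosphorylate SR proteins, 1 of 8 was called higher and 1 lower, near the shares of all genes, and 2 called lower in the fits without G9488, without G9529 or without G9577. Clk1, a nuclear SR kinase, had 164, 132, 97.4, 134 and 85.0 CPM with MYCN on, against 263, 274, 219, 174 and 202 CPM with MYCN off. Its states did not overlap, with all MYCN-on libraries below, and the change was -0.91 (SE 0.15, adjusted p = 0.00771, edgeR). Srpk1, the cytoplasmic SR kinase that sends SR proteins to the nucleus, had 225, 171, 201, 217 and 189 CPM with MYCN on, against 104, 118, 183, 150 and 55.6 CPM with MYCN off. The states overlapped through G9488, and the change was 0.81 (SE 0.23, adjusted p = 0.0365, edgeR), with an adjusted p of 0.128 without G4314, 0.0830 without G9351 and 0.0677 without G9529.

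Neural and tissue splicing regulators had 4 of 24 called higher and 4 lower, close to the shares of all genes. Mbnl2, which steers adult splice forms, fell with MYCN on by 0.94 on the log2 scale (SE 0.14, adjusted p = 0.00509, edgeR). Celf6, a brain-enriched CELF protein, was at 16.4, 26.0, 8.46, 14.9 and 0.373 CPM with MYCN on, against 50.9, 48.8, 18.4, 36.7 and 0.891 CPM with MYCN off. It was lower with MYCN on in 5 of 5 lines (change -1.24, SE 0.18, adjusted p = 0.00524, edgeR), and it was near 0 in G9577, the line with low neuroendocrine markers. The other genes called lower were Celf3 and Celf4, and those called higher were Celf1, Mbnl1, Khdrbs1 and Mbnl3. In the fits without G4314 or without G9351, 0 of the list were called higher and 3 lower. Without G9529 the counts were 2 higher and 4 lower, and without G9577 they were 2 higher and 6 lower. Gene counts do not show which exons were joined, so splicing itself was not measured here.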

How the data were processed

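Polyadenylated RNA of 5 lines in 2 states was sequenced, per the labels' protocols, with a kit that does not mark strand. Per the submitters' processing notes, bcl2fastq 1.8.4 split the reads by library and STAR 2.5.2a placed them on mm9. The authors deposited raw gene counts from featureCounts 1.6.0, per the file headers. No option kept multi-mapping reads or reads on overlapping genes, which lowers genes with near copies.

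The members and the gene lists were chosen with earlier results of these data known, so no list was tested as a set. Genes with low counts were removed with filterByExpr (minimum count 10), which left 12835 genes. Counts were scaled with TMM and tested with edgeR 4.0.16 (R 4.3.3), quasi-likelihood, two-sided, with line as a block, Benjamini-Hochberg adjustment over every gene tested and 0.05 as threshold. Residual degrees of freedom were 4 and the biological coefficient of variation 28.5%. An SE is the size of a log2 change over the root of its F. Within a line, a change is taken between log2 CPM values computed with a prior count of 2, and TPM values were computed from counts and exon lengths. Lines pair the libraries by the labels. Deviations from the group means correlated at r of 0.721 to 0.873 across genes for libraries of 1 line, and at most 0.273 for libraries of different lines. The p-values set the fitted change against the variation of that change among these lines. With 1 library per line and state, and cultures not described in the labels, noise between cultures or libraries cannot be told apart from it. Other fits tried were DESeq2 1.42.0, limma-voom (limma 3.58.1), no line block, other filters, RLE scaling, scaling by library size alone, and leaving out each line. Genes named are Srsf1, Hnrnpa1, Snrpd1, Mycn and Myc, up to 5 rises and 3 falls per family with 1 sign in all lines, the gene nearest 0 per family and up to 2 genes per list with the smallest p. Other members named were chosen after their values were seen. Promoter windows are from RefSeq (GRCm38.p6), and gene coordinates are those of the files (mm9).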

Additional observations from a re-analysis of the deposited data

Results flagged for a closer look

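In 81 groups of 5 libraries (levels of the named members in each state, their changes by line, and family sums), the highest or lowest library was compared with the rest, and 5 stood apart by a gap that chance gives in about 1 in 20 groups. At that rate, 81 groups give about as many by chance alone. Srsf1 was at 962.9 CPM with MYCN on in G4314, against 829.1 to 849.6 CPM in the other lines with MYCN on. Srsf2 was at 775.7 CPM with MYCN on in G9577, against 585.9 to 636.6 CPM in the others. Hnrnpul1 was at 427.5 CPM with MYCN on in G9488, against 332.5 to 353.4 CPM. Snrpf was at 21.1 CPM with MYCN on in G9488, against 13.32 to 13.82 CPM. Sf3a3 was at 186.4 CPM with MYCN off in G9529, against 98.55 to 117.4 CPM. No cause was tested.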

How the results depend on the processing

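Members called higher numbered 29 in the fit reported and 27 to 30 with DESeq2, limma-voom, RLE scaling, library size alone and other filters. Without the replicate block they fell to 2 (Snrpe and Snrpd2), with 0 SR, 0 hnRNP, 2 snRNP and 0 SF3 genes, and all genes called numbered 274, against 3973 with the block. DESeq2 and RLE scaling each called 1 member lower, the SR gene Srsf12. With lines left out in turn, ranges were 9 to 27 members higher and 0 to 1 lower, 0 to 2 SR genes higher and 0 to 1 lower, 1 to 9 hnRNP, 6 to 11 snRNP and 2 to 5 SF3 genes higher, and 1729 to 4493 genes called in all; such fits have fewer libraries. The change of Srsf4 ran from -0.119 without G4314 to 0.027 without G9577, that of Hnrnpul1 from -0.020 without G4314 to 0.082 without G9577, and that of Sf3b1 from -0.034 without G4314 to 0.097 without G9488, none of them called. Family medians kept their direction in all fits named here, and summed levels did so with RLE scaling, library size alone and each line left out, the settings in which they were recomputed. Depth limits Srsf12, Snrpn, Snrpg and Snrpf, which had few counts.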
